A study of Homo sapiens with 3 samples.

Results

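EGR1, JUN, FOS, FOSB, DUSP1, KLF6 and IER3 are immediate early genes, and their signals were compared between 3 cultures of BTSH cells, 1 array per culture. BTSH is a single clone picked from the HER2+ breast cancer cell line BT474 for its increased sensitivity to trastuzumab, an antibody against HER2. All 3 cultures were untreated and grown in DMEM with fetal bovine serum and antibiotics, so the labels give no difference between them other than the replicate number. RNA was measured on HuGene 2.0 ST arrays, and the values are log2 signals normalized by the authors. The 7 genes have 20 of the 16098 array features that carry a gene name here, out of 53617 features in all, and every feature of each gene was kept. The genes were chosen as a group with earlier results of these same arrays known, so their values are given as a description, with no test. With 1 array per culture, a difference between cultures has no replicate check of its own, and n = 3 for every SD.

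Immediate early genes are transcribed within minutes of a stimulus such as serum, a growth factor or stress, without a need for new protein synthesis, and their mRNAs are short-lived. In a typical response, MAP kinases act on transcription factors that are already present, among them the serum response factor SRF, which binds the CArG box, and CREB, which binds the cAMP response element (CRE). Many of the genes encode transcription factors themselves. FOS and FOSB proteins pair with JUN to form the AP-1 complex, EGR1 is a zinc finger factor that binds GC-rich sites, and KLF6 is a zinc finger factor of the Krüppel-like family. DUSP1 encodes a phosphatase that switches MAP kinases off, and IER3 encodes a small protein that acts on cell survival.

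Since these genes are known to be controlled through short sites next to the start of transcription, the 250 bases before the annotated start are shown for the 6 members with an entry in the RefSeq promoter table of GRCh38.p14. IER3 is the other member. Capitals mark CArG boxes, the CRE TGACGTCA, its core TGACG on either strand, and TGACATCA, the variant of the AP-1 site known from the JUN promoter.
EGR1, chr5:138465229-138465478, plus strand: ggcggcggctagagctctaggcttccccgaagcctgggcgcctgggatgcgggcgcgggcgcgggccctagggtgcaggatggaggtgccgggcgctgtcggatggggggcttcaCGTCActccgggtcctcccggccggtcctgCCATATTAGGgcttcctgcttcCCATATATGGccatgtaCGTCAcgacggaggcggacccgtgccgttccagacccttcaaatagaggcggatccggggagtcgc
JUN, chr1:58784048-58784297, minus strand: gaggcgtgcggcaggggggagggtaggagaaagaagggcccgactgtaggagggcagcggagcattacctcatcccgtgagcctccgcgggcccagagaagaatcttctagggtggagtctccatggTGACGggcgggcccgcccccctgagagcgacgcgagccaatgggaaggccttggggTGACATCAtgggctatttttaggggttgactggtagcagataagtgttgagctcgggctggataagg
DUSP1, chr5:172771196-172771445, minus strand: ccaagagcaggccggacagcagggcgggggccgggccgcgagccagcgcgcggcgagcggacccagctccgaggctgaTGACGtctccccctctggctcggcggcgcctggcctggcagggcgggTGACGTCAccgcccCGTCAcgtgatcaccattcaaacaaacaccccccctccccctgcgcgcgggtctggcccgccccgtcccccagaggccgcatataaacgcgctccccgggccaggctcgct
KLF6, chr10:3785210-3785459, minus strand: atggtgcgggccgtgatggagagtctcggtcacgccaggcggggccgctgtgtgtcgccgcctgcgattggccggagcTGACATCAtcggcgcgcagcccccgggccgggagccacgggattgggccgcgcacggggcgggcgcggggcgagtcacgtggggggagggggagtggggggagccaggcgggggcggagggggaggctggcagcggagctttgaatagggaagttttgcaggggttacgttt
FOS, chr14:75278578-75278827, plus strand: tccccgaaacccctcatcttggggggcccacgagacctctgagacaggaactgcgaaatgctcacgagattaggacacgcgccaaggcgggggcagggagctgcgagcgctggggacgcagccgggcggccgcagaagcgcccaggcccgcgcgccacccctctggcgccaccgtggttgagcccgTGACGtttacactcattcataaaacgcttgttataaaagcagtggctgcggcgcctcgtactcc
FOSB, chr19:45467746-45467995, plus strand: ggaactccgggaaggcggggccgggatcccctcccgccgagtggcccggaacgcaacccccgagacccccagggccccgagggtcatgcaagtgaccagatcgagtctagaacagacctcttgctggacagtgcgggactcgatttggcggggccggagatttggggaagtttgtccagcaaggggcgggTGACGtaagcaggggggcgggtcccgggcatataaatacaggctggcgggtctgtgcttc

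EGR1 was the member with CArG boxes in this window, with 2 of them, CCATATTAGG from 105 to 96 bases before the start and CCATATATGG from 83 to 74. Both strands were searched for every motif, and a CArG box was found in 1.16% of 35116 promoter windows of the same length. The full CRE was found in the DUSP1 window alone among the 6, from 125 to 118 bases before the start, and in 1.65% of all windows. The core TGACG, which is part of the full CRE, was found in 5 of the 6 windows, all but that of KLF6, and in 21.2% of all windows. TGACATCA was found in the JUN and KLF6 windows and in 2.37% of all windows. This motif was added to the search after the JUN sequence had been seen. The AP-1 site TGACTCA was in 0 of the 6 windows and in 4.20% of all windows. The EGR site GCGGGGGCG was in 1 window, that of KLF6, and in 4.72% of all windows. The GC box GGGCGG, which overlaps the EGR site in the KLF6 window, was in 5 windows, all but that of EGR1, and in 42.6% of all windows. The letters TATAAA were in the FOS, FOSB and DUSP1 windows and in 10.7% of all windows. A match is a description of the letters and not evidence of binding, and sites further upstream lie outside the window.

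**Figure D1:**
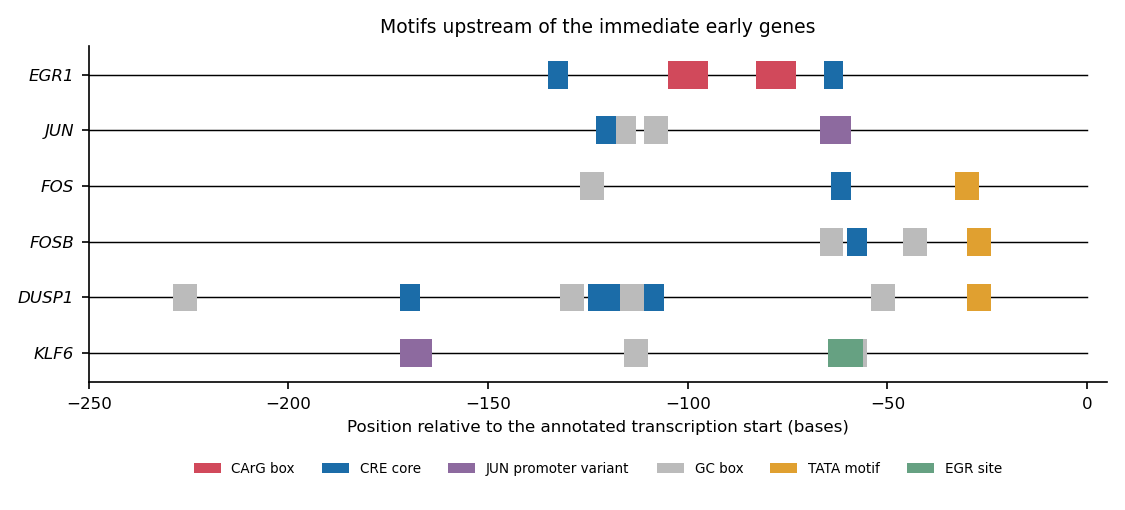
Positions of motifs in the 250 bases before the annotated start of 6 immediate early genes, with the position relative to the start in bases on the x axis and 1 line per gene. The 2 CArG boxes of EGR1 lie within 105 bases of the start, the blue boxes of DUSP1 include its CRE at 125 to 118 bases, and blue boxes are present in 5 of the 6 genes.

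The members with the largest excess of 1 culture over both others were EGR1, JUN and DUSP1, and for each of them it was replicate 2. EGR1 had log2 signals of 6.38 in replicate 1, 8.48 in replicate 2 and 6.42 in replicate 3. Replicate 2 was thus 4.29-fold above replicate 1 and 4.18-fold above replicate 3, whereas replicates 1 and 3 were nearly equal (replicate 1 minus replicate 3, -0.037 on the log2 scale). In the RNA of a whole culture, a higher level in all cells and a response of some of the cells cannot be told apart. Of the 16098 named features, this one had the largest deviation of replicate 2 from the mean of the other 2 replicates, 2.08 on the log2 scale. Among all 53617 features, named or not, it ranked 2 by the same measure. A signal was called above background when it exceeded the 95th percentile of 105 features for vomeronasal receptors, late cornified envelope proteins and keratin-associated proteins, none of which is a known product of breast cells. This background was 6.71 for replicate 1, 7.08 for replicate 2 and 6.84 for replicate 3, and EGR1 was above it in replicate 2 and in neither of the others. Its level in replicates 1 and 3 is therefore only bounded from above, and set against the background of those arrays replicate 2 was at least 3.42-fold higher than replicate 1 and at least 3.13-fold higher than replicate 3. The second EGR1 feature had signals of 4.11, 4.45 and 4.04. It was highest in replicate 2 as well, by 0.34 over replicate 1, but it was above background in 0 arrays.

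JUN, the core partner in AP-1, had signals of 6.72, 8.11 and 6.40 in replicates 1, 2 and 3. Replicate 2 was 2.62-fold above replicate 1 and 3.29-fold above replicate 3, and replicate 1 was 0.33 above replicate 3 on the log2 scale. The deviation of 1.55 in replicate 2 ranked 3 among all named features, and 20 among all features. JUN exceeded background by 1.04 in replicate 2, by 0.018 in replicate 1, and fell short of it by 0.44 in replicate 3 (signal minus background, -0.44 on the log2 scale). Against the background of replicate 3, JUN was at least 2.43-fold higher in replicate 2. Thus in both EGR1 and JUN the signal in 2 of the cultures was at or near the background of the arrays as set here. With the 90th percentile of the same features as background (5.34, 5.56 and 5.61), the first EGR1 feature and JUN passed in every array. The lower signals therefore do not show that the transcripts were absent.

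DUSP1 was well above background in every culture, with signals of 9.03, 9.75 and 9.04. Replicate 2 was 1.65-fold above replicate 1 and 1.64-fold above replicate 3, and replicates 1 and 3 were nearly equal (replicate 1 minus replicate 3, -0.0038 on the log2 scale). Its deviation of 0.72 in replicate 2 ranked 15 among all named features, but 395 among all features. Since its signal exceeded background by at least 2.20 in each array, this difference does not depend on a signal close to background. The SD over the 3 cultures was 1.20 for EGR1, 0.91 for JUN and 0.42 for DUSP1, against a median SD of 0.118 over all named features.

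**Figure D2:**
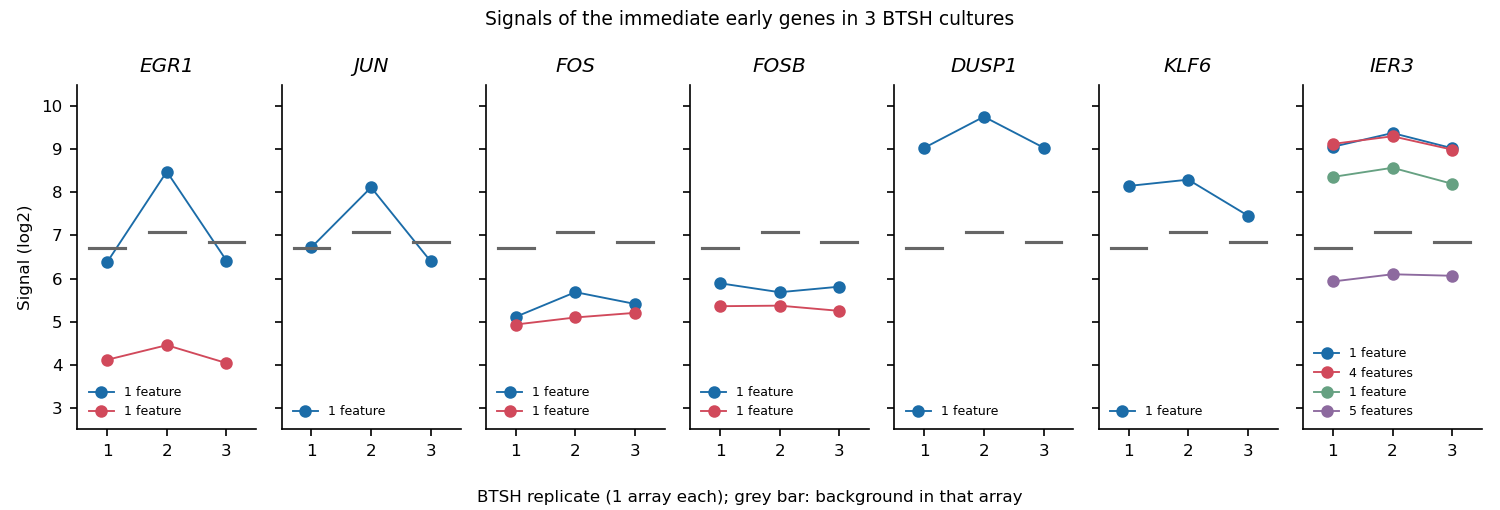
Log2 signal of every feature of the 7 immediate early genes in each of the 3 BTSH replicates, 1 panel per gene, with lines joining the values of 1 feature and the number of features with identical values in each legend. Grey bars give the background of each array (6.71, 7.08 and 6.84). EGR1, JUN and DUSP1 peak in replicate 2, KLF6 is lowest in replicate 3, and both FOS and both FOSB features lie below background in every array.

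FOS and FOSB, the other AP-1 subunits among the members, were not above background in any culture. The first FOS feature had signals of 5.11, 5.68 and 5.41, and so replicate 2 was 0.57 above replicate 1 and 0.27 above replicate 3. The second had 4.93, 5.10 and 5.20, highest in replicate 3. The features of FOSB had 5.89, 5.68 and 5.81, lowest in replicate 2, and 5.36, 5.37 and 5.25. The 4 features do not share an order of the cultures, and the differences lie between signals that are all below background. Since signals also reflect the probes, these values do not show that the cells lacked either transcript. The deviations of 0.42 and 0.03 for FOS and of -0.17 and 0.07 for FOSB stand beside those of 2.08 and 1.55 for EGR1 and JUN.

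KLF6 differed between the cultures in another way. It had signals of 8.15, 8.29 and 7.46, all above background. Replicate 2 was 1.11-fold above replicate 1, and both were higher than replicate 3, by 1.78-fold and 1.61-fold. Thus its deviation of 0.49 in replicate 2 comes with a larger deviation of -0.76 in replicate 3, and the culture that stands apart for KLF6 is replicate 3 and not replicate 2. Replicate 3 was also the culture most often lowest in general. It was lowest for 2192 of the 4694 named features above background in all arrays, against 1291 for replicate 1 and 1211 for replicate 2.

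IER3, which lies on chromosome 6, has 11 features, but several of them hold identical values in all 3 arrays, so that they make up 4 distinct profiles and are not independent measurements. A group of 4 features had signals of 9.12, 9.30 and 8.99, a single feature 9.05, 9.37 and 9.02, and another 8.36, 8.57 and 8.20. These 3 profiles were above background in all cultures and highest in replicate 2, by 1.13-fold to 1.25-fold over replicate 1 and by 1.24-fold to 1.29-fold over replicate 3. The other 5 features, with 5.93, 6.10 and 6.06, were above background in 0 arrays. The excess of replicate 2 in IER3 was therefore in the same direction as in DUSP1 but smaller, at deviations of 0.24 to 0.34 against 0.72.

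Over all members, 18 of the 20 features were highest in replicate 2, or 11 of 13 with identical features counted once, while 29.5% of all named features were highest there. This count includes features below background. Of the 20 features, 8 passed background on every array, 2 on 1 or 2 of the arrays and 10 on 0, and all 10 that passed on at least 1 array were highest in replicate 2, against 23.3% of the named features that passed in at least 1 array. EGR1 passed in replicate 2 alone, and so had to be highest there. The genes were chosen on these same arrays, and so this direction may be owed to the choice. Nothing further is read from these counts. The members differed more in the size of the difference. By a 1.5-fold excess over both other replicates, 3 features were called, those of EGR1, JUN and DUSP1, and 0.155% of all named features. By a 2-fold excess, EGR1 and JUN were called, and 0.0248% of all named features. Among all 53617 features, named or not, 356 were called at 1.5-fold and 65 at 2-fold in replicate 2. No member feature was at least 1.5-fold above both other cultures in replicate 1 or in replicate 3 (0 in each), while 33 and 40 of all named features were. Of the 5 distinct profiles above background in all arrays, those of DUSP1 and KLF6 had at least 1.5-fold between the highest and the lowest culture, as had 2.34% of the named features above background in all arrays. The median deviation of the 20 features was 0.24 for replicate 2, and -0.15 and -0.21 for the others, and that of all named features in replicate 2 was 0.00018. With identical features counted once it was 0.34 in replicate 2. The 3 deviations of a feature sum to 0 and are not separate results.

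Other genes of the same response were examined through lists taken from textbook knowledge, with the 7 members left out, identical features of a gene counted once and the deviation of replicate 2 as the measure. Of 8 other AP-1 subunits listed, 5 have a named feature. JUNB (9.22, 9.36 and 9.26), JUND (9.03, 9.15 and 9.39) and FOSL2 (8.27, 8.13 and 8.20) were above background, and their deviations of 0.12, -0.07 and -0.11 differ in sign. ATF3 (5.14, 5.54 and 5.15) and FOSL1 (5.14, 4.80 and 6.05), named here to complete the family, were above background in 0 arrays. None of these 5 subunits was 1.5-fold above both other cultures in replicate 2 (0 of 5), as JUN was. Of the EGR, NAB and NR4A factors other than EGR1, 4 have a named feature, 0 of them was above background in any array, and 0 was highest in replicate 2.

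Of 48 other immediate early genes listed, 24 have a named feature and 9 were above background in all arrays. Among all named features above background in all arrays, 24.8% were highest in replicate 2, 47.1% in replicate 1 and 28.1% in replicate 3. Of the 9 genes, 5 were highest in replicate 2, whereas 3 peaked in replicate 1 and 1 in replicate 3, and the median deviation was 0.15. The largest deviations were those of the kinase PLK2 (9.20, 9.52 and 9.07), the Krüppel-like factor KLF2 (7.28, 7.59 and 7.31) and the small GTPase RHOB (10.83, 11.13 and 10.87), which were 0.38, 0.30 and 0.28. All 3 were below that of DUSP1, and those of KLF2 and RHOB lay within the range of the IER3 profiles above background. The other features highest in replicate 2 were those of IER2 (7.41, 7.81 and 7.69), singled out after its values were seen, and of SRF (8.37, 8.60 and 8.52), with deviations of 0.26 and 0.15. In contrast, KLF11 (8.47, 8.19 and 8.26) was lowest in replicate 2. Over all 25 distinct profiles of the list, those below background included, the median deviation was -0.02 and 7 were highest in replicate 2.

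DUSP1 is one of a family of phosphatases that limit MAP kinase signalling, and several of these are induced by ERK together with the SPRY inhibitors. The list of these genes also holds ETV1, ETV4 and ETV5, which were above background in 0 arrays. Of its 14 genes with a named feature, 6 were above background in all arrays. Of the 6, 4 were highest in replicate 2 (24.8% of all named features above background), and the median deviation of the 6 was 0.16. DUSP6 and SPRY4 were among the 4, but exceeded replicate 1 by only 0.041 and 0.00075. DUSP4 had 9.54, 9.80 and 9.52, a pattern like that of DUSP1 at a deviation of 0.28. DUSP6 (7.77, 7.81 and 7.25) and SPRY4 (7.31, 7.31 and 6.95) were lower in replicate 3 than in the other 2 cultures, as KLF6 was, with deviations of 0.30 and 0.18 in replicate 2. Being lowest in replicate 3 was common to 2192 of the 4694 named features above background in all arrays. Over all 15 profiles the median deviation was -0.03. The kinases and transcription factors that act upstream of these genes had a median deviation of 0.02 over 9 profiles above background, 3 of which were highest in replicate 2, near the share of 24.8% over all such features. Their largest deviations were those of ATF2 (9.18, 9.21 and 8.70; 0.28), MRTFB (9.84, 9.85 and 9.49; 0.18) and SRF. The KLF family other than KLF6 had a median deviation of 0.0044 over 7 profiles, with 2 highest in replicate 2, again near that share. The lists overlap and are not separate observations. SRF, KLF2, KLF10 and KLF11 are also counted among the other immediate early genes above. No list had a profile 1.5-fold above both other cultures in replicate 2 except that of luminal markers, where GATA3 was 1.56-fold above the next culture.

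**Figure D3:**
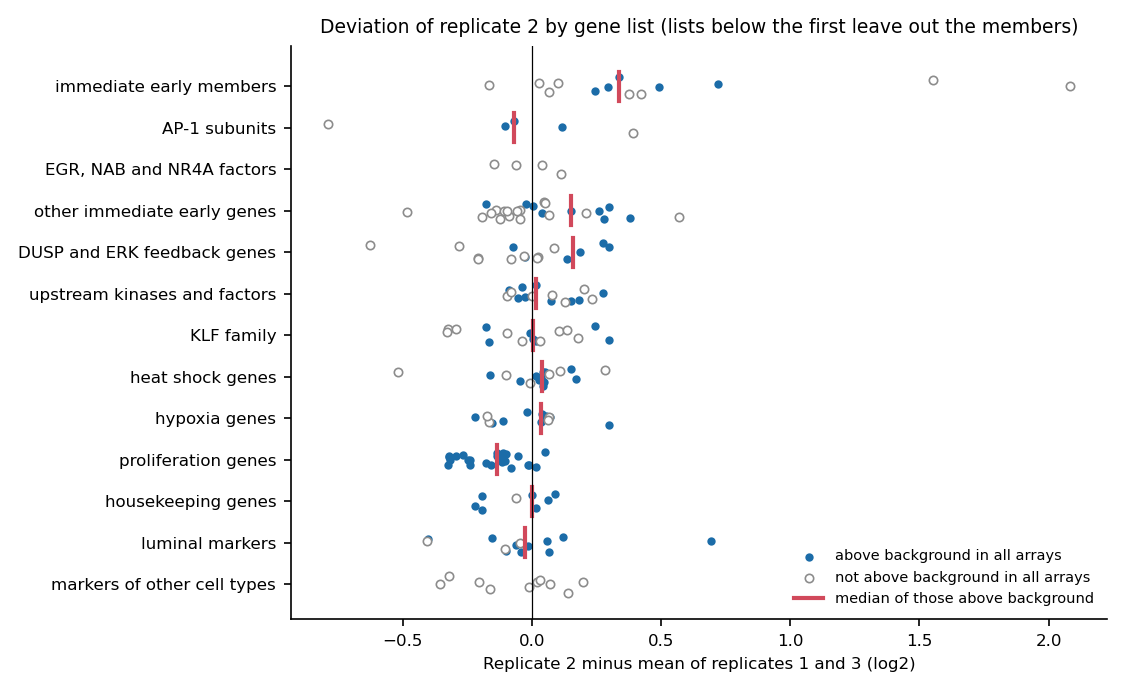
Deviation of replicate 2 from the mean of replicates 1 and 3 (x axis, log2) for each distinct profile of the members and of 12 other gene lists without the members, with filled points above background in all arrays, open points not, and a red bar at the median of the filled points. The medians are 0.34 for the members, 0.15 for other immediate early genes, 0.16 for DUSP and ERK feedback genes, -0.07 for other AP-1 subunits and -0.14 for proliferation genes.

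Likeness of pattern was measured as the root mean square difference between the 3 mean-centred log2 values of a feature and those of a member, over 5671 other named features above background in at least 1 array. With only 3 arrays this describes a shape and nothing more. The features most like the median profile of the 20 member features were those of CAMTA2, DUSP4, PABIR1, ARL2-SNX15 and KDM4A, with differences of 0.025 to 0.026. Of these, CAMTA2 had 7.91, 8.17 and 7.88, and KDM4A 10.05, 10.33 and 10.02. With identical features counted once, 5 others came first (ZSWIM8, ZBTB4, DTX2P1-UPK3BP1-PMS2P11, MLXIP and HECTD2-AS1). For EGR1 and for JUN, compared singly after their values had been seen, the nearest feature was MIR21, the gene of a microRNA that is abundant in breast cancer, with 7.04, 8.37 and 6.44 and differences of 0.34 from EGR1 and 0.12 from JUN. For DUSP1 the nearest were MIR596 (difference 0.037), GATA3 (0.039) and SOX2 (0.044), and for KLF6 they were ZNF117 (0.052), MIR181B1 (0.053) and PXK (0.068).

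The 3 arrays as a whole were close to each other, with medians of 4.40 to 4.43 on the log2 scale and a median absolute difference of 0.136 to 0.153 between any pair, and no pair had more than 83 identical values. Above background, median deviations in replicate 2 were 0.15 for other immediate early genes and 0.16 for DUSP and ERK feedback genes. Without that filter they were -0.02 and -0.03. The lists that follow had other patterns. Of 24 proliferation genes, all above background, 0 were highest in replicate 2 (24.8% of all named features above background), with a median deviation of -0.14. Of 9 hypoxia genes above background, all were highest in replicate 1 (47.1%). Of 12 heat shock profiles above background 9 were highest in replicate 3 (28.1%) and 1, that of HSPH1, in replicate 2. These 12 profiles come from only 6 genes. The 9 are of HSPB1, nearly equal in replicates 2 and 3, and of HSPA1A and HSPA1B, which have several profiles of similar values. Profiles of the same gene are not independent measurements. Housekeeping genes had a median deviation of 0.0012 over 7 profiles, with a range of -0.22 to 0.09. Of the 7, 5 were highest in replicate 1 (47.1%) and 0 in replicate 2 (24.8%), and 1 of them, PGK1, is also in the hypoxia list. Whether any of these differences between cultures has a part in that of the immediate early genes was not tested. Luminal markers were above background in all arrays for 10 of 13 profiles, and KRT8 was above it in 0 arrays. Signals also reflect the probes, so this does not show that the cells lacked KRT8. KRT18, for example, had 10.49, 10.59 and 10.89 on 1 feature and 6.73, 6.75 and 6.98 on another. Of 10 profiles of markers of basal, stromal, endothelial and immune cells, 9 were above background in 0 arrays, and CD68, which many cells express, was above it in 2 arrays (7.70, 7.03 and 7.01). The summed signal of these markers was 8.36 in replicate 1, 7.93 in replicate 2 and 7.94 in replicate 3 (log2). Apart from CD68, this sum holds signals below background, so nothing is read from it about other cell types.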

How the data were processed

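Total RNA of 3 BTSH cultures was measured on HuGene 2.0 ST arrays. Array files were normalized by RMA with Expression Console 1.4, and the authors deposited log2 signals of 53617 features. Transcriptome Analysis Console 4.0 is also listed in the processing notes of the submitters. The sources used here give no genome build, and feature coordinates were not used. RMA scales the arrays to a common distribution, and so a shift of all genes in 1 culture would not be seen. The values were used as deposited. An array annotation named 16098 features (30.0%), with 0 features of several symbols. Background, deviations and folds were computed per feature as stated with the results. The arrays form 1 group, and no test was run. The members and the lists were chosen with earlier results of these data known. Besides the members, the named genes are up to 3 examples per list (those above background with the largest absolute deviation), the 5 most alike and the 10 highest in replicate 2, with exceptions stated. In the wider lists, members were left out. Alternatives were quantile normalization, median centring, 1 feature per gene, filters on background, the 90th and 99th percentile of the background and leaving out replicates. The deviation and the call were tested on simulated data. Promoter sequences are from RefSeq (GRCh38.p14). Python 3.11.15, numpy 2.4.6, pandas 2.3.3 and matplotlib 3.10.9 were used. Precision is limited by the number of arrays, 3.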

Additional observations from a re-analysis of the deposited data

How the results depend on the processing

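Quantile normalization and median centring left the 3 features at least 1.5-fold above both other cultures in replicate 2 the same in number. They left the median deviation of the members at 0.25 and 0.24. RMA had already scaled the deposited values to a common distribution, so these settings had little room to change the result. The FOSB feature with nearly equal signals was no longer highest in replicate 2 with median centring (17 features in place of 18). Counts of features highest in replicate 2 follow the number of features: 6 of 7 with the feature of highest mean for each gene, 10 of 10 above background in at least 1 array, and 11 of 13 with identical features counted once, a setting chosen after seeing the data. With 1 feature for each gene the median deviation was 0.49, with 13 fewer features, 10 of them of IER3. At the 90th percentile of the background features, 16 member features passed on every array, among them the first EGR1 feature and JUN, and at the 99th percentile 7 passed. Leaving out replicate 1 or 3 gave 18 to 19 features higher in replicate 2, 3 to 4 at least 1.5-fold higher and median differences of 0.18 to 0.31. Without replicate 2 none of these results has a value.

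Without a filter on background, the medians were -0.0226 for other immediate early genes and -0.0286 for DUSP and ERK feedback genes (the cause was not tested). When replicate 1 or 3 was left out, the median difference of replicate 2 to the remaining array was -0.0737 to 0.111 for AP-1 subunits, 0.0109 to 0.192 for upstream kinases and factors, -0.15 to 0.17 for the KLF family, -0.0792 to 0.165 for heat shock genes and -0.32 to 0.25 for hypoxia genes, so the direction in replicate 2 changed with the array left out for all of these lists but that of upstream kinases and factors. It was 0.15 to 0.22 for other immediate early genes, 0.08 to 0.18 for DUSP and ERK feedback genes and -0.18 to -0.11 for proliferation genes. Signals near background limit the fold changes of EGR1 and JUN. No paired analysis was possible because there is 1 group of arrays, with no second group to pair.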

Other observations

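Apart from the immediate early genes, 22 named features were at least 1.5-fold above both other cultures in replicate 2, of 25 in all, and 18 of the 25 were above background in 0 arrays. Among features above background in replicate 2, the largest excess outside the members was that of MIR21, which was 2.52-fold above the next culture (log2 signals of 7.04, 8.37 and 6.44 in replicates 1 to 3) and by this excess ranked 3 of all named features, after EGR1 and JUN. It was followed by MIR596 (6.62, 7.28 and 6.54), above background in replicate 2 alone and there at least 1.36-fold higher than either other culture, GATA3, a transcription factor of luminal cells (8.69, 9.43 and 8.78), and SOX2, a transcription factor of stem cells (8.75, 9.41 and 8.80), the last 2 at 1.56-fold and 1.53-fold above the next culture.

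LUZP2 (8.45, 9.02 and 8.22), TBCK (7.98, 8.62 and 8.09), PLPP1, a lipid phosphatase (7.64, 8.15 and 7.63), MIR449B, LINC01061 and MIR3619 completed the 10 with the largest excess in measured signal. MIR449B was above background in replicate 2 alone, and the other 5 were 1.33-fold to 1.48-fold above the next culture. Each rests on 1 feature, they were picked by their values, and a link to the immediate early genes was not tested.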
